A study of Schizosaccharomyces pombe with 6 samples.

Results

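Aminoacyl-tRNA ligases (aminoacyl-tRNA synthetases) are the enzymes that join each amino acid to its own tRNA, and so set which amino acid a codon is read as. The genes of these enzymes described here are the 34 of 6986 in the deposited count table whose product, in the authors' deposited comparison table, contains "-tRNA ligase" and whose identifier is not that of an SPNCRNA non-coding RNA. By the same product text, 17 of them are cytoplasmic, 13 are mitochondrial and 4 are labelled mitochondrial and cytoplasmic. The 17 cytoplasmic genes cover 16 amino acids, because the phenylalanine enzyme has an alpha and a beta subunit. The 4 shared genes cover the remaining amino acids alanine, arginine, glycine and histidine. The symbols follow the deposited table and can mislead: there rar1 is the gene of the cytoplasmic methionine enzyme Mrs1, and mrs1 is the gene of the arginine enzyme. Of the 6 genes without a symbol in that table, SPCC18.08 is named msk1 in RefSeq and the other 5 are given by identifier.

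Each cell compartment with a ribosome needs its own supply of charged tRNA. In yeasts the mitochondrial enzymes are coded in the nucleus and imported. Some amino acids have a cytoplasmic and a mitochondrial gene, and for others a single gene serves both compartments.

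The data are RNA-seq libraries of polyadenylated RNA from Schizosaccharomyces pombe, the fission yeast. There were 3 of strain AS2300, h- with duf89 replaced by a hygromycin resistance marker (duf89delta::hygR), and 3 libraries of the wild-type (WT) strain JS 77. All cultures were in log phase at 30 ºC in Yeast Extract Supplemented medium. Each group is 1 strain. The deletion replicates are called biological in the labels and the WT replicates are only numbered, so the p-values measure the spread between these libraries, which may be technical for WT. By the design text, both groups were sequenced together, although the WT data had already been released in a separate series.

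The libraries held 18244492 to 21572536 counts, and 6045 genes passed the filter on low counts, all 34 tRNA ligase genes among them. The deleted gene itself had 229, 234 and 373 counts in the deletion libraries, against 808, 897 and 794 in WT. The 36 features of the mitochondrial genome whose identifiers start with SPMIT had 0 counts in each deletion library, against 851, 1078 and 727 in WT. Without mitochondrial-genome and rRNA genes, 13 ligase genes were called higher and 14 lower, beside 31.2% and 21.3% of all genes tested in that fit. The lowest value of a ligase gene was 282 counts, for the mitochondrial asparagine gene slm5 in WT replicate 1. In such bulk libraries, fewer cells that express a gene and less of its RNA per cell cannot be told apart, and genotype cannot be told apart from any way in which the groups were prepared differently.

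The comparison asks how the loss of duf89 changed the RNA of the charging enzymes. In the deletion 10 of the 34 genes rose and 16 fell, by edgeR's quasi-likelihood test with a threshold of 0.05 after Benjamini-Hochberg adjustment over all 6045 genes. Of all genes tested, 28.8% were called higher and 24.6% lower. Of the 13 mitochondrial genes 8 rose and 2 fell, and of the 17 cytoplasmic genes 1 rose and 11 fell. Of the 4 shared genes hrs1 rose, and ala1, mrs1 and grs1 fell. The median log2 fold change (deletion over WT) was 0.27 for the mitochondrial genes and -0.18 for the cytoplasmic genes, beside 0.00047 for all genes tested. The authors' deposited table, at the same threshold, has 9 of the 34 higher and 16 lower, beside 25.4% and 25.1% of the genes with an adjusted p there. With library totals in place of TMM scaling, 13 were higher and 11 lower, beside 34.3% and 17.4% of all genes. In 13 of the 34 genes every deletion library was above every WT library, and in 16 every one was below, which held for 32.9% and 30.4% of all genes tested.

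The changes were small. Of the 26 called genes, only SPAC24C9.09, the mitochondrial threonine gene, differed by 1.5-fold or more. The compartments also differed in level, and across the transcriptome the fold change ran with level. When tested protein genes were ranked by mean level into eighths, the 13 mitochondrial ligase genes lay in the second to the fifth eighth, counting from the lowest. In those eighths 58.9%, 53.2%, 45.5% and 32.6% of all protein genes were called higher. The 17 cytoplasmic genes lay in the 3 highest eighths, with 12 in the top one. There 28.2%, 42.9% and 59.5% of protein genes were called lower. The median log2 fold change of the eighths was 0.34 in the second and -0.17 in the top one. These eighths include the ligase genes themselves.

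**Figure D1:**
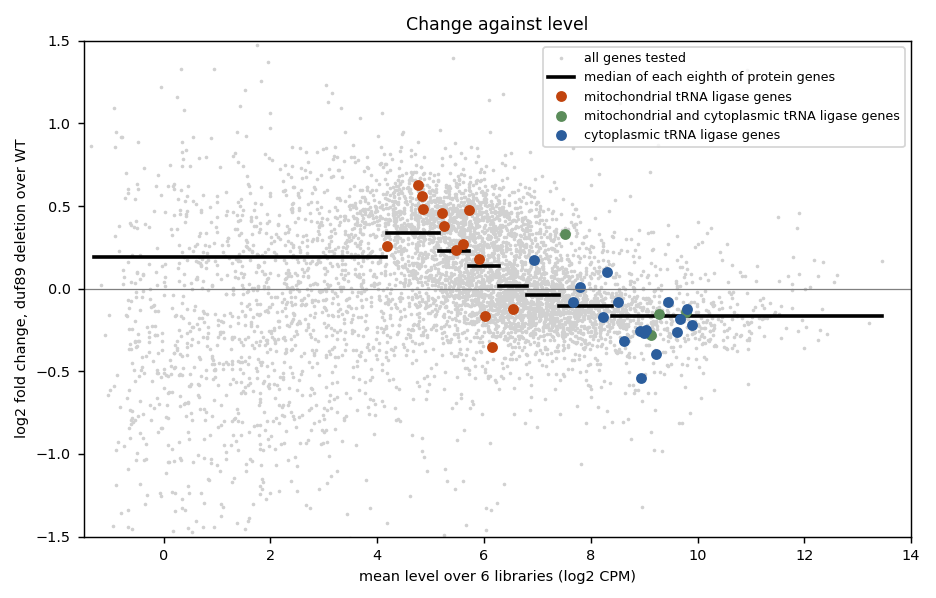
Log2 fold change (deletion over WT, vertical axis) against mean log2 CPM over the 6 libraries (horizontal axis) for all genes tested (grey), with the median of each eighth of protein genes as black lines. Mitochondrial ligase genes (orange) sit at lower levels and mostly above 0, cytoplasmic ones (blue) at higher levels and mostly below 0, as the black lines do, and 77 genes lie outside the plotted range.

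With cyclic loess scaling, which removes a trend of the difference with level, 5 mitochondrial genes were still called higher and 2 lower, and 2 cytoplasmic genes were higher and 5 lower. The background with that scaling was 21.8% higher and 23.9% lower, and the medians were 0.065 for mitochondrial and -0.046 for cytoplasmic genes. Of the 26 calls, 14 held in every alternative fit at the same threshold: the mitochondrial genes SPAC24C9.09, msm1, dia4, msk1 and SPBC24C6.03 (higher) and msw1 (lower), the cytoplasmic genes qrs1 (higher) and drs1, lrs1, rar1, irs1 and vrs1 (lower), and the shared genes hrs1 (higher) and grs1 (lower).

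**Figure D2:**
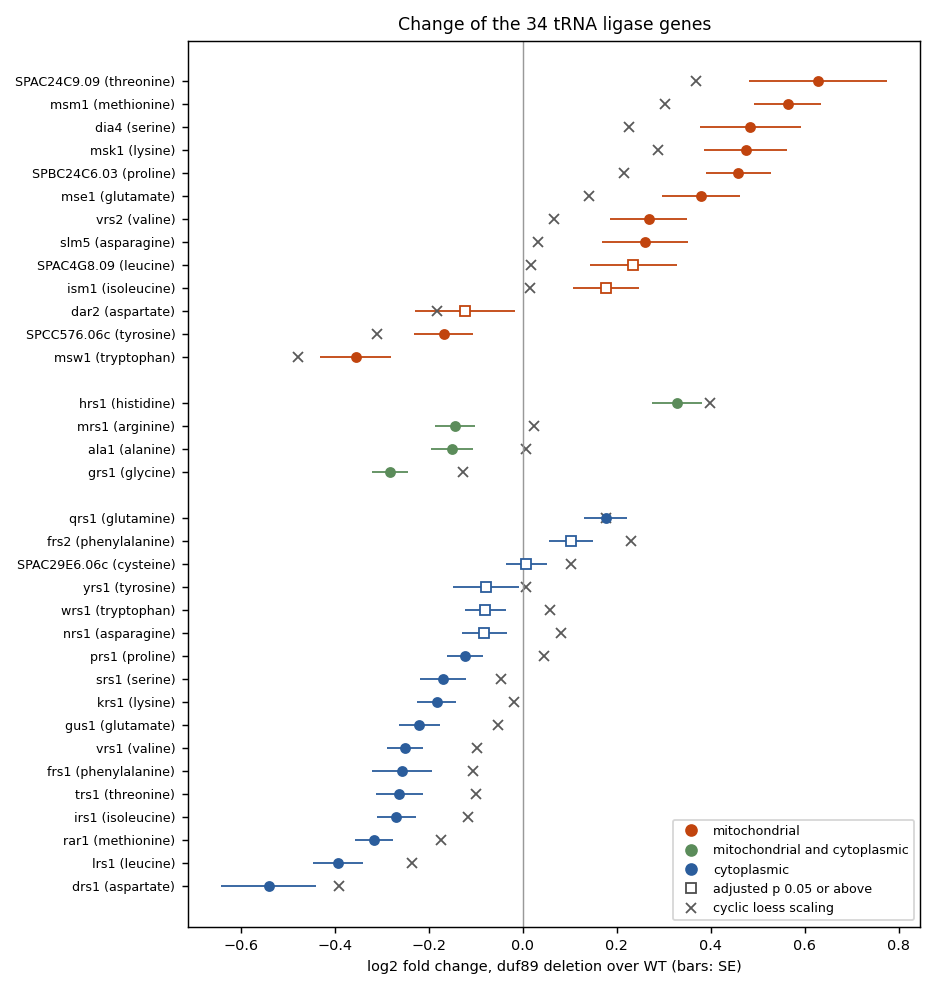
Log2 fold change of each of the 34 genes (deletion over WT, bars are SE), grouped by compartment, with filled circles for called genes and open squares for the others. Grey crosses give the value with cyclic loess scaling, which lies left of the circle or square for the 13 mitochondrial genes and at or right of it for the others, so the compartments stand closer together.

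Among the mitochondrial enzymes the threonine gene SPAC24C9.09 had the largest rise. Its level was 29.3, 31.2 and 41.2 CPM (read counts brought to a common library total, here with TMM scaling) in the deletion libraries, against 18.4, 22.7 and 24.7 CPM in WT. The groups did not overlap, and deletion replicate 3 was well above the other 2. This is 0.63 on the log2 scale (SE 0.15, adjusted p = 0.0060).

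The methionine gene msm1 was the most even. It had 35.2, 34.3 and 34.5 CPM in the deletion, against 23.3, 23.5 and 23.6 CPM in WT. The libraries of each group lay close together and the groups far apart (log2 fold change 0.56, SE 0.071, adjusted p = 3.8e-04).

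The serine gene dia4 had 33.8, 32.8 and 36.5 CPM in the deletion, against 20.9, 25.1 and 27.7 CPM in WT. It rose by 0.48 (log2, SE 0.11, adjusted p = 0.0048). For the lysine gene msk1 the levels were 61.1, 60.1 and 64.1 CPM in the deletion, against 38.3, 47.3 and 47.9 CPM in WT. For both genes the groups were apart and WT replicate 1 was the lowest library. The change of msk1 was 0.47 (SE 0.089, adjusted p = 0.0022).

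The proline gene SPBC24C6.03 gave 44.0, 43.2 and 43.7 CPM in the deletion, against 31.3, 30.6 and 33.4 CPM in WT, or 0.46 higher in log2 (SE 0.069, adjusted p = 8.5e-04). Transcripts of mse1, the glutamate enzyme, measured 43.1, 44.9 and 42.7 CPM in the deletion, against 29.9, 34.6 and 35.9 CPM in WT. Neither gene overlapped between groups. The change of mse1 was 0.38 (SE 0.083, adjusted p = 0.0046), and with cyclic loess it did not pass (0.14, adjusted p = 0.13).

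The valine gene vrs2 had 52.8, 51.3 and 56.1 CPM in the deletion, against 39.5, 46.5 and 47.1 CPM in WT (log2 fold change 0.27, SE 0.082, adjusted p = 0.020). The asparagine gene slm5, the lowest of the set, had 21.0, 18.7 and 19.8 CPM in the deletion, against 15.6, 17.4 and 16.7 CPM in WT (0.26, SE 0.092, adjusted p = 0.037). Both calls were weak. That of vrs2 was lost without WT replicate 1 (0.19, adjusted p = 0.051) and with cyclic loess (0.065, adjusted p = 0.45). That of slm5 was lost with DESeq2 (0.25, adjusted p = 0.073), with cyclic loess (0.033, adjusted p = 0.79) and without deletion replicate 1 (0.25, adjusted p = 0.075), WT replicate 1 (0.22, adjusted p = 0.11), WT replicate 2 (0.30, adjusted p = 0.062) or WT replicate 3 (0.26, adjusted p = 0.060).

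Against this direction, the tryptophan gene msw1 fell. It had 65.5, 66.7 and 56.2 CPM in the deletion, against 82.1, 82.7 and 76.3 CPM in WT. Its change was -0.36 (SE 0.076, adjusted p = 0.0039), and -0.48 with cyclic loess. The tyrosine gene SPCC576.06c had 64.1, 62.7 and 57.2 CPM in the deletion, against 69.7, 67.9 and 69.1 CPM in WT, and fell by 0.17 (SE 0.063, adjusted p = 0.045). The groups of both genes were apart, but the call of SPCC576.06c was lost when any 1 library was left out, with values from -0.18 to -0.096 and adjusted p from 0.079 to 0.20. It was also lost with library totals (-0.10, adjusted p = 0.20), the upper quartile (-0.15, adjusted p = 0.055), no filter (-0.16, adjusted p = 0.059) and without mitochondrial-genome and rRNA genes (-0.14, adjusted p = 0.080), whereas with cyclic loess the value was -0.31 (adjusted p = 0.0038).

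Among the mitochondrial genes 3 did not pass the test. The leucine gene SPAC4G8.09 measured 0.23 (SE 0.093, adjusted p = 0.056) and the isoleucine gene ism1 0.18 (SE 0.070, adjusted p = 0.058), each with all deletion libraries above all WT libraries. SPAC4G8.09 passed without WT replicate 3 (0.28, adjusted p = 0.043), and ism1 without deletion replicate 3 (0.23, adjusted p = 0.044) or WT replicate 1 (0.24, adjusted p = 0.018). Both also passed with library totals (0.30 for SPAC4G8.09 and 0.24 for ism1) and, more narrowly, with the upper quartile (0.25 and 0.19) and without mitochondrial-genome and rRNA genes (0.26 and 0.20). The aspartate gene dar2 measured -0.12 (SE 0.11, adjusted p = 0.35). Its deletion libraries had 100.6, 95.9 and 72.6 CPM, against 96.0, 103.1 and 94.2 CPM in WT, so the groups overlapped and deletion replicate 3 was the low library. Without that replicate the value was 0.031.

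**Figure D3:**
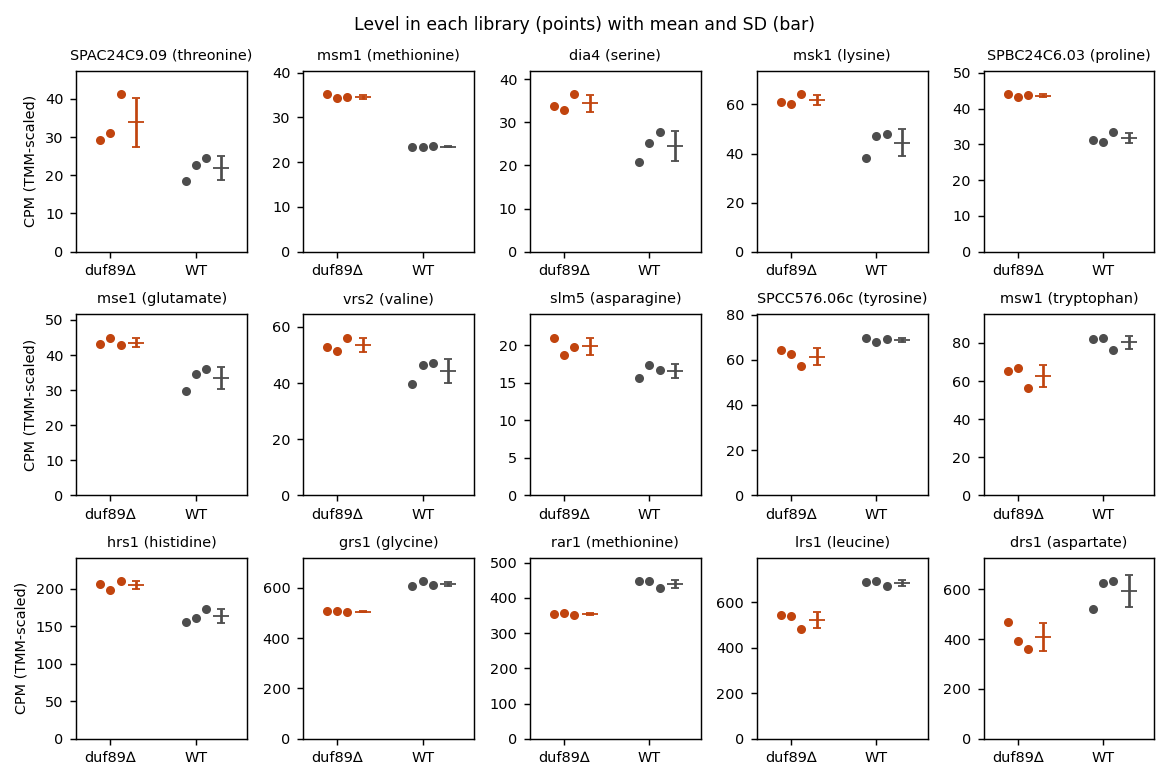
Level in TMM-scaled CPM of the 15 genes given in full, 1 panel per gene with its own vertical axis from 0. Each point is a library (duf89 deletion in orange, WT in grey) and the bar beside it the mean and SD over 3 libraries. In none of the 15 panels do the groups overlap, but the genes were chosen because they were called. Of all genes tested, 32.9% had every deletion library above every WT library and 30.4% every one below.

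Of the enzymes shared by both compartments, the histidine gene hrs1 rose. It had 206.6, 198.6 and 209.7 CPM in the deletion, against 155.2, 161.4 and 173.5 CPM in WT (log2 fold change 0.33, SE 0.052, adjusted p = 0.0011). The groups were apart, and with cyclic loess the value was 0.40. The glycine gene grs1 fell to 506.9, 505.6 and 502.7 CPM in the deletion, against 606.6, 625.1 and 612.1 CPM in WT (-0.28, SE 0.038, adjusted p = 4.8e-04). The libraries of grs1 hardly varied within a group. The alanine gene ala1 (-0.15, SE 0.044, adjusted p = 0.016) and the arginine gene mrs1 (-0.14, SE 0.042, adjusted p = 0.017) fell too, without overlap between groups. Both calls were lost with library totals only (-0.084, adjusted p = 0.11, for ala1 and -0.077, adjusted p = 0.15, for mrs1) and with cyclic loess (0.0074 and 0.023). Leaving out deletion replicate 1 or 3, or WT replicate 1 or 2, also ended both, with adjusted p between 0.054 and 0.085, and leaving out deletion replicate 2 ended that of mrs1 (adjusted p = 0.11).

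The largest fall was that of drs1, the gene of the cytoplasmic aspartate enzyme. Its level was 469.5, 393.0 and 358.6 CPM in the deletion, against 519.4, 625.0 and 631.6 CPM in WT. The libraries of each group were widely spread for so abundant a gene, and the groups still did not overlap. The change was -0.54 on the log2 scale (SE 0.10, adjusted p = 0.0023), and -0.39 with cyclic loess.

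The leucine gene lrs1 fell to 540.9, 540.0 and 480.0 CPM in the deletion, against 689.8, 690.8 and 669.0 CPM in WT (-0.39, SE 0.053, adjusted p = 4.8e-04). The methionine gene rar1 fell to 352.9, 356.8 and 350.6 CPM in the deletion, against 447.0, 446.7 and 427.2 CPM in WT (-0.32, SE 0.040, adjusted p = 4.0e-04). In both, every deletion library was below every WT library by a wide margin.

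A further 8 cytoplasmic genes fell by less. These were irs1 (isoleucine, -0.27), trs1 (threonine, -0.26), frs1 (the beta subunit of the phenylalanine enzyme, -0.26), vrs1 (valine, -0.25), gus1 (glutamate, -0.22), krs1 (lysine, -0.18), srs1 (serine, -0.17) and prs1 (proline, -0.12), with adjusted p from 9.0e-04 to 0.024. None of these 8 overlapped between groups, but they were picked as called genes. Of all genes tested, 30.4% had every deletion library below every WT library. With cyclic loess irs1 (-0.12, adjusted p = 0.029) and vrs1 (-0.097, adjusted p = 0.042) were still called, and the others were not. The weakest, prs1, also lost its call without any 1 deletion library or without WT replicate 2 (-0.10 to -0.089, adjusted p 0.055 to 0.12), and srs1 without deletion replicate 2 or 3 or WT replicate 2 (-0.16 to -0.12, adjusted p 0.055 to 0.095). With library totals both calls were lost too (adjusted p = 0.21 for prs1 and 0.064 for srs1), as was that of prs1 without mitochondrial-genome and rRNA genes (adjusted p = 0.0502).

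The glutamine gene qrs1 was the only cytoplasmic ligase gene called higher. It had 131.8, 132.5 and 126.6 CPM in the deletion, against 118.3, 114.9 and 112.8 CPM in WT (0.18, SE 0.047, adjusted p = 0.011). The groups did not overlap. Per kilobase it was also the lowest cytoplasmic ligase gene. The other 5 did not pass: frs2, the alpha subunit of the phenylalanine enzyme (0.10, SE 0.046, adjusted p = 0.089), SPAC29E6.06c (cysteine, 0.0070), yrs1 (tyrosine, -0.079), wrs1 (tryptophan, -0.081) and nrs1 (asparagine, -0.082). The call of frs2 depended on the fit. It passed without deletion replicate 2 (0.16, adjusted p = 0.029) or 3 (0.13, adjusted p = 0.044) and with library totals (0.17, adjusted p = 0.0062), the upper quartile (0.12, adjusted p = 0.046), no mitochondrial-genome and rRNA genes (0.13, adjusted p = 0.029) and cyclic loess (0.23, adjusted p = 0.0023), whereas frs1 did not pass with cyclic loess (-0.11, adjusted p = 0.11). The subunits of this enzyme thus had values of opposite sign in TMM and in cyclic loess scaling.

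Levels of different genes are compared here as CPM per kilobase of the longest RefSeq transcript of each gene. For the mitochondrial genes these lengths ran from 1523 to 6316 bases, with msw1 (6316) and dar2 (4270) the longest. The levels per kb of such genes depend on that choice of transcript. The 13 mitochondrial genes ran from 7.22 to 40.3 CPM per kb in the deletion (median 18.7) and from 6.03 to 45.2 CPM per kb in WT (median 14.3). The 17 cytoplasmic genes ran from 51.7 to 393.5 CPM per kb in the deletion (median 209.0) and from 45.8 to 458 CPM per kb in WT (median 200.8). The cytoplasmic medians are those of different genes, frs2 in the deletion and srs1 in WT. Of the 17 genes, 14 had a negative log2 fold change. The highest mitochondrial gene, SPCC576.06c (40.3 in the deletion and 45.2 in WT), and the lowest cytoplasmic gene, qrs1 (51.7 in the deletion and 45.8 in WT), nearly met in WT. Summed over a compartment, the mitochondrial genes took 0.0666% ± 0.0003 of all counts in the deletion libraries and 0.0571% ± 0.0013 in WT (SD, n = 3 each). The cytoplasmic genes took 0.828% ± 0.010 in the deletion and 0.911% ± 0.010 in WT. Neither sum overlapped between the groups. These shares use unscaled library totals and are a description of the libraries.

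For each of 13 amino acids a mitochondrial and a cytoplasmic gene could be set against each other inside 1 library, where the scaling of the library cancels out. In 11 of the 13 pairs the mitochondrial gene made up a larger percentage of the cytoplasmic gene, in counts per kb, in every deletion library than in every WT library. In the tryptophan pair it was smaller in every deletion library, and in the tyrosine pair the groups overlapped. Pairs of other genes at like levels were not counted, so no background share stands beside these numbers. Across protein genes the median log2 fold change was 0.34 in the second eighth by level and -0.17 in the top one. The median difference over the pairs was 0.58 on the log2 scale. An exact two-sided permutation test of 3 against 3 libraries cannot give a p below 0.1. The 12 separated pairs each had this value, and 0.11 after Benjamini-Hochberg adjustment over the 13 pairs.

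The threonine pair differed most. SPAC24C9.09 stood at 3.51%, 3.81% and 5.51% of trs1 in the deletion, against 1.94%, 2.31% and 2.61% in WT, a log2 difference of 0.89 (SE 0.24). For methionine, msm1 was at 15.3%, 14.7% and 15.1% of rar1 in the deletion, against 7.995%, 8.05% and 8.46% in WT (0.88, SE 0.030). The libraries of each group gave nearly the same methionine ratio. For lysine (msk1 over krs1, 0.67), serine (dia4 over srs1, 0.66), leucine (SPAC4G8.09 over lrs1, 0.64) and glutamate (mse1 over gus1, 0.61) the differences lay close together.

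Proline (0.58), valine (0.52), isoleucine (0.45), aspartate (0.41) and asparagine (0.34) followed. In the aspartate pair the difference came with a fall of drs1, as dar2 did not pass the test. The mitochondrial genes of the leucine and isoleucine pairs, SPAC4G8.09 (0.23) and ism1 (0.18), did not pass either, while lrs1 (-0.39) and irs1 (-0.27) fell. In the tryptophan pair msw1 was at 4.62%, 4.88% and 4.24% of wrs1 in the deletion, against 5.81%, 5.61% and 5.23% in WT (-0.28, SE 0.074). These percentages rest on transcript lengths of 6316 bases for msw1 and 1638 for wrs1. Not divided by length, the mean levels in WT were 80.4 CPM for msw1 and 375.7 CPM for wrs1. The log2 difference between the groups does not depend on the lengths. The tyrosine pair was the most evenly expressed, with SPCC576.06c at 32.7%, 38.1% and 29.3% of yrs1 in the deletion and 37.5%, 34.1% and 34.2% in WT (-0.087, SE 0.12). Because the members of a pair differ in level, these ratios hold the trend with level too. With cyclic loess 10 of the 13 differences were above 0, from 0.13 for isoleucine to 0.47 for threonine and 0.48 for methionine. The tryptophan difference was then -0.54, the largest in size of the 13, the tyrosine difference was -0.32, and the asparagine difference was just below 0.

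**Figure D4:**
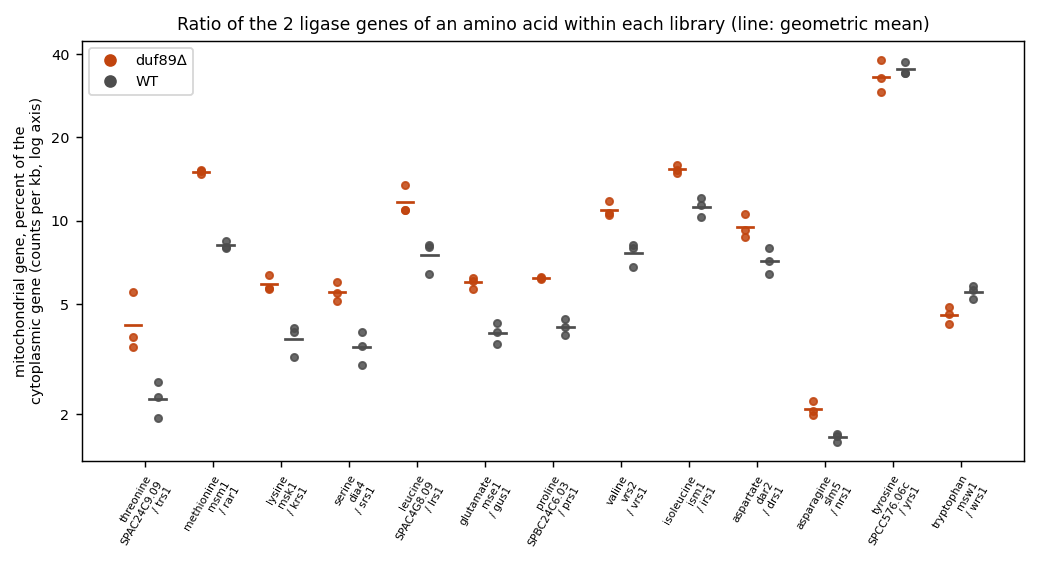
For each of 13 amino acids, the mitochondrial gene as a percentage of the cytoplasmic gene in counts per kb (log axis), 1 point per library, with duf89 deletion in orange left of WT in grey and a line at the geometric mean. Orange points lie above grey ones in 11 pairs, below them in the tryptophan pair, and among them in the tyrosine pair.

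Enzymes of this family fall into 2 structural classes, I and II, that differ in the fold of the catalytic domain, a property the choice of genes did not use. By amino acid, 3 of 7 mitochondrial class I genes rose and 2 fell, and 5 of 6 class II genes rose and 0 fell, beside 28.8% and 24.6% of all genes tested. Of the cytoplasmic genes, 1 of 9 in class I rose and 5 fell, and 0 of 8 in class II rose and 6 fell. The shares over all genes do not account for level. In the eighths by level that hold the mitochondrial genes, 32.6% to 58.9% of protein genes were called higher. In those that hold the cytoplasmic genes, 28.2% to 59.5% were called lower. A difference between the classes was not tested. The genes lie on all 3 chromosomes, with 16 on I, 12 on II and 6 on III.

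Overlapping genes limit some values, since the libraries were stranded but the sources used here do not say with which strand setting reads were counted. In RefSeq 33 of the 34 genes overlap a feature on the other strand. For 18 of them such a feature is in the count table, and for 13 it is a protein gene. The members whose opposite gene had more counts than they did were slm5, across from dug1 with 3931% of its mean count, msm1, across from cdc1 (562%), SPAC24C9.09, across from mrp4 (251%), and msw1, across from peg1 (109%). The change of dug1 (-0.29) and of cdc1 (-0.24) had the opposite sign to that of slm5 and msm1. That of mrp4 (0.28) had the same sign as that of SPAC24C9.09 but was smaller, and that of peg1 (0.18, adjusted p = 0.066) had the opposite sign to that of msw1. The serine gene dia4 lies across from deg1, which has 84.5% of its counts and rose too (0.55, SE 0.11, adjusted p = 0.0028). Of the other members in this position, hrs1 faces a gene with 68.3% of its counts and msk1 one with 51.3%. Neither of these genes passed the test (0.11 and 0.12). The genes across from irs1 (32.9% of its counts, -0.21) and vrs1 (8.93%, -0.37) fell, as those members did. Genes across from dar2 (34.2%, 0.42), mrs1 (8.51%, 1.14) and prs1 (4.13%, 0.65) rose, against the sign of those members. The gene across from wrs1 (10.4%, -0.17) did not pass, nor did SPBC1198.09, also across from slm5 (634%, -0.12). On the same strand, yrs1 overlaps asp1, which rose (0.70) and has 32.6% of the counts of yrs1, krs1 overlaps SPBC17G9.04c, with 12.5% of its counts, and SPAC4G8.09 overlaps SPAC4G8.08, with 147% of its counts (0.067). The percentages compare counts of whole genes, not of the shared stretch, so how far the values are uncertain was not measured.

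Other protein genes with tRNA in their product, many of which modify, splice, mature or hydrolyse tRNA, were measured beside the ligases. All 80 were tested, and 46 rose and 8 fell, with a median log2 fold change of 0.33. Of all genes tested, 28.8% were called higher and 24.6% lower, a background that does not account for level. In the second to the fifth eighth of protein genes by level, 58.9%, 53.2%, 45.5% and 32.6% were called higher. Which eighths the 80 genes lay in was not counted. With cyclic loess 28 rose and 13 fell, beside 21.8% and 23.9% of all genes, with a median of 0.12. The 6 largest changes were all rises: trm140, a tRNA methyltransferase gene (0.83, SE 0.14), SPBC21.03c, of an EVE domain protein (0.75), sen34, of the tRNA splicing endonuclease (0.65), msf1 (0.65), pmt1, of a cytosine tRNA methyltransferase (0.63), and tan1, of a tRNA acetyltransferase (0.58). All 6 were also called with cyclic loess.

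That list also holds genes of other products tied to tRNA charging or to charged tRNA. The gene msf1, of the mitochondrial phenylalanine enzyme, is called a synthetase in the table and so is not among the 34. It had 41.2, 40.2 and 43.1 CPM in the deletion, against 22.3, 27.8 and 29.0 CPM in WT (adjusted p = 9.3e-04). The genes gta1, gta2 and gta3 code for the amidotransferase that makes glutamine-tRNA from glutamate-tRNA in mitochondria. All 3 were called higher (0.25, 0.37 and 0.36), but none passed with cyclic loess (0.10, 0.11 and 0.13, with adjusted p from 0.17 to 0.32). The related gene aim41 did not pass (0.20, adjusted p = 0.22). The gene fmt1, of the formyltransferase of mitochondrial methionine-tRNA, rose (0.47, SE 0.14), with 0.49 under cyclic loess (adjusted p = 0.022). The gene asc1, of a cofactor of the cytoplasmic methionine and glutamate enzymes, rose (0.33, SE 0.087, adjusted p = 0.010, and 0.45 with cyclic loess), while the genes of those enzymes, rar1 and gus1, fell. Of the genes in this paragraph, gta1, gta2, gta3, aim41, fmt1 and asc1 were named after their values were seen.

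Uncharged tRNA is sensed by the kinase Gcn2, which phosphorylates the translation factor eIF2 alpha. A list of 8 genes around eIF2 alpha and amino acid starvation was measured. It also holds the eIF2 alpha kinase genes hri1 and hri2, which are not taken here as sensors of uncharged tRNA. Of these 8 genes 0 rose and 2 fell, beside 28.8% and 24.6% of all genes tested, so the share that fell was near the background. With library totals (34.3% and 17.4% of all genes) and with cyclic loess (21.8% and 23.9%) 1 gene was called in each direction. The gene of eIF2 alpha itself, tif211, fell (-0.21, SE 0.044, adjusted p = 0.0037), as did gcn1, of the activator of Gcn2 (-0.15, SE 0.043, adjusted p = 0.014). Neither passed with cyclic loess (adjusted p = 0.19 and 0.51), and gcn1 lost its call with library totals only (adjusted p = 0.13) and without deletion replicate 1 (adjusted p = 0.12) or 3 (adjusted p = 0.063) or WT replicate 2 (adjusted p = 0.056). The kinase genes gcn2 (0.076), hri1 (-0.076) and hri2 (0.027) did not pass, nor did gcn20 (0.093), cpc2 (-0.011), of the RACK1 ortholog, or fil1 (-0.14, adjusted p = 0.15), of a GATA-type transcription factor of the amino acid starvation response. With cyclic loess, however, hri1 was called lower (-0.34, adjusted p = 0.0050) and cpc2 higher (0.17, adjusted p = 0.0053). The gene gcn20 was called higher with library totals (0.16, adjusted p = 0.015), without mitochondrial-genome and rRNA genes (0.12, adjusted p = 0.046) and without deletion replicate 3 (0.13, adjusted p = 0.036).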

How the data were processed

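The submitters' processing notes name the build ASM294v2 and, with no role or order, the tools HTSeq 0.10.0, HISAT2 2.1.0, DESeq, DESeq2 and SAMtools. The authors deposited a table of counts, which are whole and unequal in total and were used as raw. The authors' deposited comparison table holds a log2 fold change and its error on the log2 scale, p-values, a test score and average signal (mean normalized counts), per the file headers. Only its names, products and calls were used. One identifier stood on 2 lines of the 6987, which were summed.

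Counts were fitted with edgeR 4.0.16 in R 4.3.3 (filterByExpr minimum count 10, TMM, quasi-likelihood F test, group as the single term, Benjamini-Hochberg over 6045 genes, calls at adjusted p below 0.05). The SE is the log2 fold change over the square root of F. The fit was tested on simulated data with few changed genes, as many up as down, and no trend of change with level. The data here differ from that setting. Levels used the length of the longest RefSeq transcript of each gene in ASM294v3, in which all 34 genes matched by identifier. Overlaps between genes and the chromosome of each gene come from the same annotation. It is not the build of the notes, so no positions are printed.

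Every ligase gene is named, and full values are given for the 12 called genes of largest change and all called mitochondrial ones, and, chosen after values were seen, for qrs1, dar2 and msf1. Of the other tRNA genes the rule took the 6 called ones of largest change with at least 50 mean counts, and the starvation list is given whole. Members and lists were chosen with earlier results of these data known. Alternatives were DESeq2 1.42.0, limma-voom (limma 3.58.1), other scalings and filters, a threshold of 0.01, a replicate block and fits with 1 library removed.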

Additional observations from a re-analysis of the deposited data

How the results depend on the processing

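Of the 34 ligase genes, 14 kept their direction and their side of the 0.05 threshold in every fit tried, and 21 did so when cyclic loess is not counted. The mitochondrial genes called higher numbered 5 with cyclic loess, and 7 to 9 when 1 library was left out. Those called lower numbered 1 with the upper quartile, library totals only, no filter, without the mitochondrial-genome and rRNA genes and at an adjusted p below 0.01, and 1 in each fit that left out 1 library. The cytoplasmic genes called lower numbered 5 with cyclic loess. Those called higher numbered 2 with the upper quartile, library totals only, cyclic loess and without the mitochondrial-genome and rRNA genes, 0 at an adjusted p below 0.01, and 1 to 2 with 1 library left out. Over all ligase genes 8 were lower with cyclic loess. Of the other tRNA genes 28 were higher and 13 lower with cyclic loess, 5 lower with the upper quartile, 1 with library totals only, 4 without the mitochondrial-genome and rRNA genes, 1 at an adjusted p below 0.01 and 1 to 8 with 1 library left out. Over all genes 1152 were higher and 932 lower at an adjusted p below 0.01, or 19.1% and 15.4%. The shares over all genes were 29.8% and 23.3% with the upper quartile, 26.7% and 21.5% with no filter, and 21.8% and 23.9% with cyclic loess. They were 34.3% and 17.4% with library totals only, and 31.2% and 21.3% without the mitochondrial-genome and rRNA genes. With 1 library left out they ran from 21.8% to 29% and from 17.7% to 22.8%. The share of all calls that were higher was 53.9% as reported and 66.4% with library totals only. For the ligase genes it was 38.5%, and 54.2% with library totals only, 50% with cyclic loess and 38.9% at an adjusted p below 0.01.

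Values that changed sign with cyclic loess were ala1 (0.0074), mrs1 (0.023), prs1 (0.045), wrs1 (0.058), nrs1 (0.081), yrs1 (0.0067), hri2 (-0.17), cpc2 (0.17), fil1 (0.0016) and the mitochondrial over cytoplasmic ratio, asparagine (-0.047). SPAC29E6.06c turned to -0.0012 with DESeq2 size factors, and cpc2 to 0.0045 with the upper quartile, 0.056 with library totals only and 0.016 without the mitochondrial-genome and rRNA genes. With 1 library left out, values on both sides of 0 were seen for SPAC29E6.06c (-0.00089 to 0.056), yrs1 (-0.11 to 0.030), dar2 (-0.18 to 0.031), hri1 (-0.14 to 0.011), hri2 (-0.057 to 0.076) and cpc2 (-0.033 to 0.047). The causes were not tested. With the replicate block 10 mitochondrial genes were higher and 2 lower, beside 31.4% and 27% of all genes tested. SPAC4G8.09 (0.24) and ism1 (0.18) passed, and no other ligase call changed. Correlations of same-numbered deviations were -0.13, -0.17 and 0.26, and not every library correlated best with its own number. These values do not settle whether the numbers pair the libraries, and the labels do not state it. Each ligase gene had at least 282 counts in every library. How far depth limited the lowest, slm5, was not tested.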

Other observations

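Nuclear-coded mitochondrial ribosomal protein genes were chosen for comparison after the ligase values were seen. Of 74 tested, 24 rose and 13 fell, beside 28.8% and 24.6% of all genes, with a median log2 fold change of 0.06. With cyclic loess 13 rose and 20 fell, beside 21.8% and 23.9% of all genes, with a median of -0.06. In both scalings the shares were not far from the background. A difference from the mitochondrial ligase genes was not tested.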
